A study of Mus musculus with 2 samples.

Results

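The proteasome genes of mouse megakaryocyte-erythroid progenitors were described from the gene and transcript tables of 2 poly(A) RNA-seq libraries. The cells, bone marrow progenitors that give rise to red cells and platelets, came from C57BL/6J females aged 5 weeks, and their labels give them as CD34-negative. Both libraries belong to 1 untreated group. They carry 1 donor identifier and separate biosample identifiers, and nothing in the labels says whether they came from different animals. There is therefore no comparison of conditions, and the spread between the 2 libraries may be technical.

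Members were the protein-coding genes of the GENCODE M21 annotation whose symbol starts with Psm, a letter from a to g and a digit. The pattern took 50 genes of 21474 annotated protein-coding genes, among 43346 gene identifiers in the tables. It also took Psmc3ip, which encodes the meiotic recombination cofactor Hop2 and no proteasome subunit, and Psme2b, a close copy of Psme2. Both stay among the members in what follows.

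The proteasome is the protease that degrades ubiquitin-tagged proteins. Its 20S core is a barrel of alpha and beta rings whose proteolytic sites lie on the beta subunits Psmb5, Psmb6 and Psmb7. The 19S regulatory particle caps the barrel, recognises and deubiquitinates substrates and unfolds them with a ring of ATPases. In immune cells, and in other cells exposed to interferon gamma, Psmb8, Psmb9 and Psmb10 take the places of Psmb5, Psmb6 and Psmb7. They form the immunoproteasome, which cuts proteins into peptides for MHC class I, while Psme1 and Psme2 build the PA28 activator ring. Haematopoietic cells are known to carry immunoproteasome subunits without added interferon.

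Expression was read as TPM (transcripts per 1000000, corrected for transcript length), which allows levels of different genes to be set side by side within a library. Total expected counts were 79539452 in replicate 1 and 65305315 in replicate 2, and the biological coefficient of variation between the libraries was 21.8% over 13546 genes. Of the markers checked, 5 of 5 erythroid genes and 5 of 5 megakaryocyte genes had a TPM of 1 or more in both libraries, with summed levels of 281 and 332 TPM for the erythroid list and 208 and 337 TPM for the megakaryocyte list in replicates 1 and 2. The granulocyte and monocyte list (Mpo, Elane, Prtn3, Ctsg and Csf1r) was also detected in full, at a summed 30688 TPM in replicate 1 and 16864 TPM in replicate 2. The B cell list was detected in full at 73.6 and 27.0 TPM. The T and NK cell list had 0 of 5 genes detected, at 1.14 and 1.44 TPM, with Ncr1 at 0 in replicate 1. In bulk RNA, more cells of a type and more RNA per cell cannot be told apart.

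Of the 50 members, 48 had a TPM of 1 or more in both libraries, beside 46.9% of all protein-coding genes. The exceptions were the tissue-restricted subunits. Psma8, the alpha subunit of the germ cell proteasome, had 0.31 TPM in replicate 1 and 0.65 TPM in replicate 2, from 32 and 53 counts. Psmb11, the catalytic subunit of the thymic cortex proteasome, had 0 TPM in replicate 1 and 0.03 TPM in replicate 2, from 0 and 6 counts. A count of 0 in replicate 1 allows up to 0.0377 CPM (counts scaled to a library of 1000000), for counting error only. Psmb11 lies 3410 bases from Psmb5 on chromosome 14, and Psmb5 itself stood at 156 and 162 TPM.

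The members lay high among expressed genes. Their median was 39.8 ± 0.29 TPM (SD, n = 2 libraries), or 45.2 TPM without Psmc3ip and Psme2b. Over the 10061 protein-coding genes detected in both libraries the median was 16.4 ± 0.72 TPM. Together the members held 0.356% and 0.371% of all TPM. A mean of 100 TPM or more was reached by 12 of 50 members (24%), against 1462 of all 21474 protein-coding genes (6.81%). That 6.81% includes undetected genes in its base, and only 10061 of the 21474 were detected in both libraries. Ranked among detected genes alone, the members had a median percentile of 72. In descending order the 12 members were Psmb8, Psme1, Psmb10, Psmb6, Psmc4, Psmb4, Psmd3, Psmc3, Psmb5, Psmb2, Psmd8 and Psmd4. Of the 5 immunoproteasome genes, 3 were among them.

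**Figure D1:**
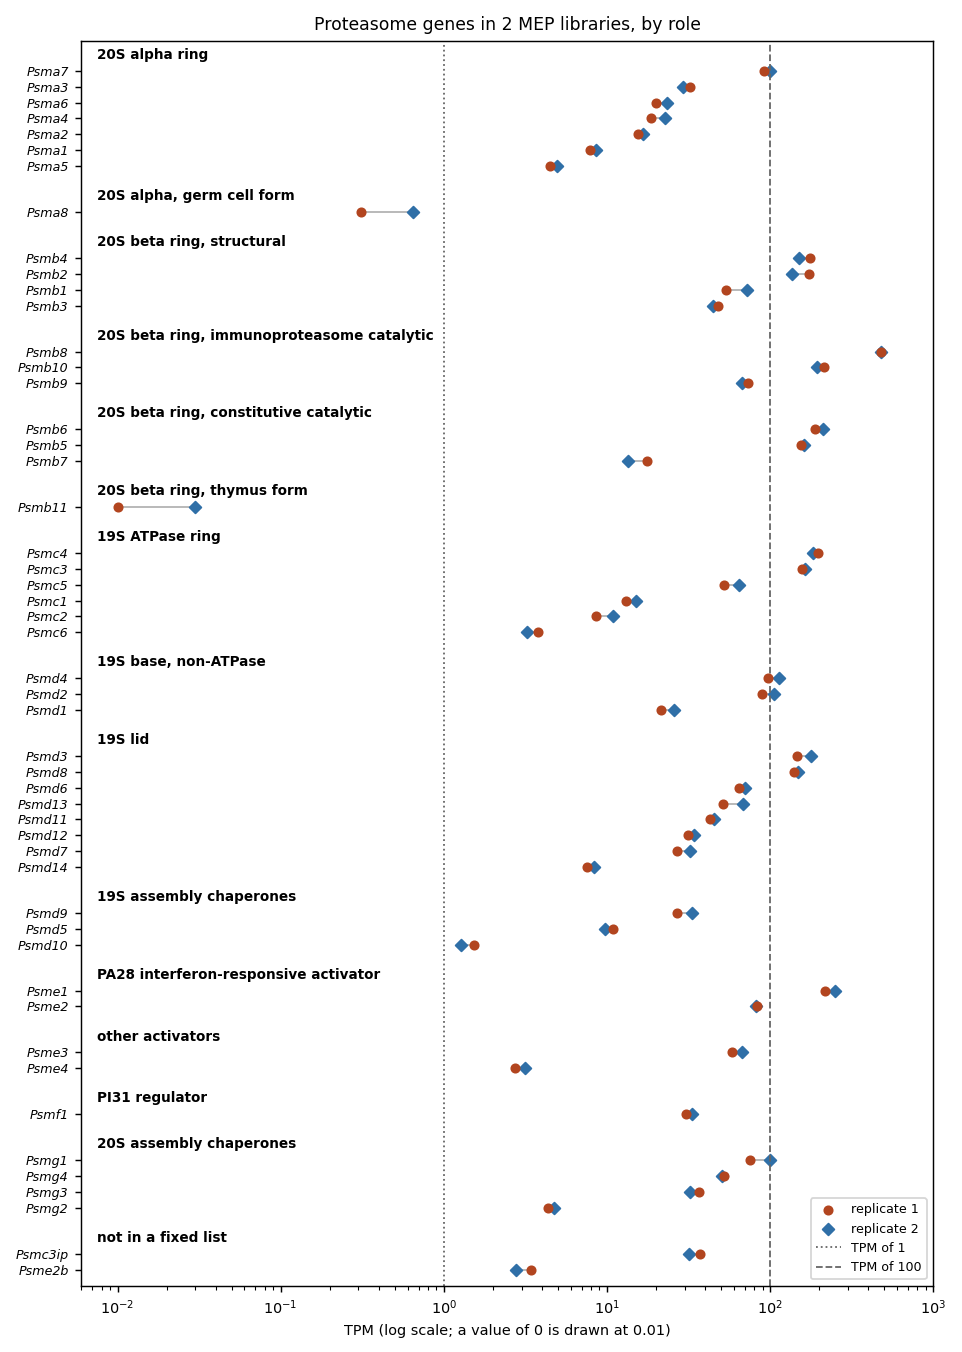
TPM of the 50 members in each MEP library on a log axis, grouped by role, with circles for replicate 1, diamonds for replicate 2 and lines at TPM of 1 and 100. Psmb8 is the highest point at 482 and 481 TPM, Psma8 and Psmb11 lie left of 1, and the symbols of the 2 libraries lie close together beside the distances between genes.

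The catalytic immunoproteasome genes were set against the constitutive genes whose places they take. Psme1 and Psme2 were set against Psme3, which builds a separate activator ring and is not replaced by them. A pair was called when its log2 ratio pointed the same way in each library and had a mean size above 1 with deposited TPM intervals that did not overlap. An exact two-sided test over 2 libraries cannot give a p below 0.5, so the ratios are given with their spread and no p. Of 5 pairs, 4 met the rule, 3 with the immunoproteasome gene higher (Psmb8, Psmb10 and Psme1) and 1 with the constitutive gene higher (Psmb6).

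Psmb8, the chymotrypsin-like immunoproteasome subunit, had 482 TPM in replicate 1 and 481 TPM in replicate 2. Its constitutive counterpart Psmb5 had 156 and 162 TPM. The immunoproteasome gene was the higher in both libraries, by a log2 ratio of 1.60 ± 0.04 (SD, n = 2) or 3.04-fold. The libraries differed by less than 10 TPM for either gene, far less than the gap between the genes.

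Psmb10, the trypsin-like immunoproteasome subunit, stood at 213 TPM in replicate 1 and 194 TPM in replicate 2, against 17.6 and 13.5 TPM for Psmb7. This was the widest of the 5 gaps, with a log2 ratio of 3.73 ± 0.18 or 13.3-fold. Psmb7 was the lowest of the 3 constitutive catalytic genes and lay 12.9-fold below Psmb6.

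Psmb9, which replaces the caspase-like subunit, ran the other way. It had 72.9 TPM in replicate 1 and 67.1 TPM in replicate 2, against 188 and 211 TPM for Psmb6. The constitutive gene was 2.85-fold higher, a log2 ratio of -1.51 ± 0.21. On expected counts, which are not corrected for length, the ratio kept its sign at -0.59 but no longer met the size rule.

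Summed over the 3 catalytic places, the immunoproteasome genes had 769 TPM in replicate 1 and 743 TPM in replicate 2, against 361 and 386 TPM for the constitutive genes. The immunoproteasome share of the 2 sums was 68.1% and 65.8%, and the log2 ratio was 1.02 ± 0.11. Psmb8 alone held more than the 3 constitutive genes together in both libraries. These are mRNA levels, and how many particles carried each subunit was not measured.

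**Figure D2:**
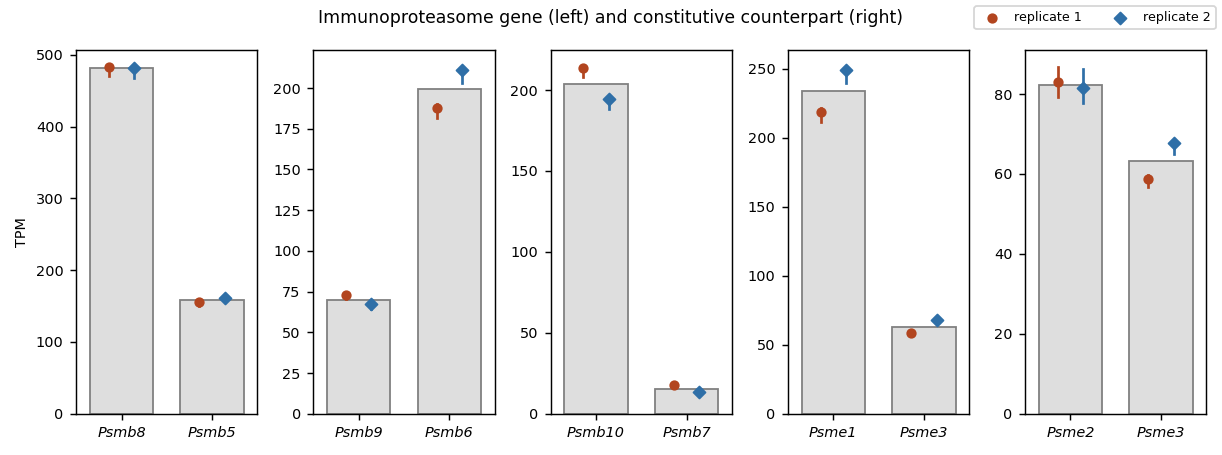
TPM of each immunoproteasome gene on the left and the gene it was set against on the right, with 1 panel per pair and its own axis from 0. Bars give the mean of the 2 MEP libraries, symbols each library and vertical lines the deposited TPM interval. Psmb8, Psmb10 and Psme1 stand above the genes they were set against, Psmb9 stands below Psmb6, and Psme2 and Psme3 lie closest.

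For the activator rings, Psme1 had 218 TPM in replicate 1 and 249 TPM in replicate 2, against 58.7 and 67.6 TPM for Psme3, the subunit of the nuclear PA28 ring. The log2 ratio was 1.89 ± 0.01, or 3.70-fold. Psme2, the partner of Psme1 in the interferon-responsive ring, had 82.9 and 81.5 TPM. Its log2 ratio over Psme3 was 0.38 ± 0.16 and was not called.

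Both PA28 ratios depended on how length entered. On expected counts Psme1 over Psme3 was 0.39 and not called, and Psme2 over Psme3 turned to -1.97. The transcript tables put 86.2% and 80.9% of Psme2 TPM in transcripts of a type other than protein-coding, mainly Psme2-207, a retained-intron model of 490 bases with 44.3% and 38.5% of the gene. Its main protein-coding transcript, Psme2-208, held 10.7% and 19.2%. With protein-coding transcripts alone, Psme2 had 11.4 and 15.6 TPM against 57.5 and 67.4 TPM for Psme3, a log2 ratio of -2.22. For Psme1 the same restriction left 125 and 130 TPM, above Psme3 in both libraries. Its log2 ratio over Psme3 was then 1.04 in place of 1.89, barely past the size rule. Psme2b, a copy of Psme2 that can share its reads, stood at 3.44 and 2.76 TPM. The deposited SD of the count, as a percent of the count, was 1.18% and 0.94% for Psme2b and 0.07% and 0.05% for Psme2. These values are small but rest on the authors' estimate, and the split of reads between the copies was not tested otherwise.

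The granulocyte and monocyte markers and the B cell markers were higher in replicate 1, and their part in the immunoproteasome levels was not tested. Relative to library size, Psmb8, Psmb9 and Psmb10 were higher in replicate 1 by 0.08, 0.19 and 0.24 on the log2 scale. Prtn3 and Elane were higher there by 1.14 and 1.10. Psme1 was lower in replicate 1, by -0.07. In replicate 2 the catalytic log2 ratios were 1.57, -1.65 and 3.85 for Psmb8 over Psmb5, Psmb9 over Psmb6 and Psmb10 over Psmb7. Each had the same sign as in replicate 1. The granulocyte and monocyte list still summed to 16864 TPM in replicate 2. That library is therefore no control without such cells, and the shared sign cannot show whether they contributed.

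Genes of the MHC class I pathway that act after the immunoproteasome were present with it. Tap1 and Tap2, the peptide transporter of the endoplasmic reticulum, had 143 and 142 TPM and 222 and 297 TPM in replicates 1 and 2. Tapbp, which tethers the transporter to MHC class I, reached 793 and 748 TPM, above Psmb8. B2m, the light chain of MHC class I, had 233 and 205 TPM. The aminopeptidase gene Erap1 was the lowest of this list at 2.62 and 2.96 TPM. Among the regulators, Irf1, a factor known to drive immunoproteasome genes, had 37.9 and 31.8 TPM, while Nlrc5, the activator of MHC class I genes, had 29.9 and 28.9 TPM.

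Psmb9 (chromosome 17, 34181987 to 34187764, minus strand), Tap1 and Psmb8 (34197721 to 34201454, plus strand) lie next to each other in the MHC class II region (GRCm38). The ends of Psmb9 and Tap1 overlap by 212 bases, and 495 bases separate Tap1 from Psmb8. Psme1 (chromosome 14, 55578123 to 55581529) and Psme2 (55587441 to 55591113) lie 5911 bases apart on opposite strands. Neighbours were not level with each other: Psmb9 at 72.9 and 67.1 TPM shares a start region with Tap1 at 143 and 142 TPM.

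Promoter windows of 5 members are shown, from 2 sets of genes whose regulators are known to differ. Interferon factors bind GAS and ISRE elements at immunoproteasome genes, and Nfe2l1 binds antioxidant response elements at constitutive ones. The windows run from 250 bases before to 50 bases after the RefSeq start (RefSeq, GRCm38.p6), on the strand of the gene. Of the 50 members, 42 had an entry, with 45 promoters. Capitals mark a match to GAS-like TTCNNNGAA, the ISRE core GAAANNGAAA or ARE-like TGACNNNGC on either strand, none of them overlapping in these 5 windows.
Psmb8, chr17:34197945-34198244, plus strand: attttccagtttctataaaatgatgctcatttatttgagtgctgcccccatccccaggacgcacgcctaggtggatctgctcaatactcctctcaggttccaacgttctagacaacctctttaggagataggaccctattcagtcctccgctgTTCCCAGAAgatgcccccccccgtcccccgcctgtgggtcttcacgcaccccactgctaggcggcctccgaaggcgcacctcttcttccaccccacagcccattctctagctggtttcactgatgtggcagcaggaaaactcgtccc
Psmb9, chr17:34187281-34187580, minus strand: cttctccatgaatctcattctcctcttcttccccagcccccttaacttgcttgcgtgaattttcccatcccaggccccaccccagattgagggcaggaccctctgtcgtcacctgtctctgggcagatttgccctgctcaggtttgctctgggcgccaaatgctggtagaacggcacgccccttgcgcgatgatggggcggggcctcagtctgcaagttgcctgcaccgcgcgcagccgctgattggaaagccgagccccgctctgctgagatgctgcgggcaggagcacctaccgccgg
Psme1, chr14:55578244-55578543, plus strand: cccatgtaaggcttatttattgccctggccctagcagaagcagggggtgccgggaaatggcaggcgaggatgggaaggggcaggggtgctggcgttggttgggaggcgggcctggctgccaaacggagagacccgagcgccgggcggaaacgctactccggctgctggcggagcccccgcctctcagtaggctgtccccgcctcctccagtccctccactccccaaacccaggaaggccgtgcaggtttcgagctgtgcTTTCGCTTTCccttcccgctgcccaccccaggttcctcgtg
Psmb5, chr14:54617946-54618245, minus strand: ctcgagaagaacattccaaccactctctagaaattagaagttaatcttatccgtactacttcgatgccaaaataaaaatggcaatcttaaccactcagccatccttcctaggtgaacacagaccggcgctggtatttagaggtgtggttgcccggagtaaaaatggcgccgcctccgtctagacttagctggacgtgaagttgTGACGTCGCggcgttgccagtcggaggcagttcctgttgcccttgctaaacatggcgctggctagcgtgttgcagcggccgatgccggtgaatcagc
Psmb6, chr11:70525107-70525406, plus strand: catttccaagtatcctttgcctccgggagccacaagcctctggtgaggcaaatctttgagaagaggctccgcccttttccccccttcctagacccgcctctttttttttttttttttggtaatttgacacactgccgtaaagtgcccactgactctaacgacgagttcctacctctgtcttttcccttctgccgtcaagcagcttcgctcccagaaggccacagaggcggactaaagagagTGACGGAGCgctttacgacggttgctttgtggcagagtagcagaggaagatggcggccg

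Psmb8 held a GAS-like TTCCCAGAA beginning 97 bases before the start, and Psme1 held an ISRE core read on the other strand as TTTCGCTTTC, beginning 9 bases after the start. Psmb5 held an ARE-like TGACGTCGC 47 bases before the start and Psmb6 held TGACGGAGC 9 bases before it. The Psmb9 window held none of the 3 motifs, and 275 of its 300 bases are also in the window of Tap1. These positions hold for the RefSeq starts, and the leading GENCODE transcripts often begin elsewhere. For Psmb8, the first 40 bases after the shown start lie 405 bases inside Psmb8-201, with 28.1% and 30.0% of the gene's TPM, and are absent from Psmb8-203, which held 71.2% and 69.1%. For Psmb9 they lie 434 bases inside Psmb9-204, which held 90.04% and 89.48%. For Psme1 they lie 134 bases inside Psme1-208, with 40.7% and 35.9%, and are absent from Psme1-202 and Psme1-207. For Psmb6 they are in none of its 4 annotated transcripts as a whole, and for Psmb5 they lie 27 bases inside Psmb5-201, its only expressed transcript. The windows of Psmb8, Psmb9 and Psme1 are therefore not those of the start of their most abundant transcript.

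Over all members the motifs were spread among roles. The ARE-like motif was in 6 of 45 member promoters (13.3%), near the share of 12.4% over all 32851 promoters. The 6 were those of Psmb5, Psmb6, Psmc6, Psmd9, Psmd12 and Psme4. The GAS-like motif was in 3 member promoters (6.67%, against 8.30% of all), those of Psmb8, Psmd2 and Psmg1. The ISRE core was in 5 (11.1%, against 3.44% of all), those of Psme1, Psmb3, Psmd4, Psmd9 and Psmg4. The 6 immunoproteasome promoters held 0 ARE-like, 1 GAS-like and 1 ISRE core match, and 6 promoters are too few to give a share. Those of Psmb9, Psmb10 and Psme2 held none of the 3 motifs. A match is a description of the letters and no evidence of binding. Nfe2l1, the factor known to raise proteasome genes when proteasome activity falls, had 48.5 and 52.0 TPM, its relative Nfe2l2 had 25.9 and 23.9 TPM, and its processing genes Ddi2 and Ngly1 had 12.2 and 12.9 TPM and 25.8 and 24.0 TPM.

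Genes of the constitutive core, whose proteins are present in equal numbers in each ring, had unequal levels. The 14 genes had a median of 38.5 ± 2.06 TPM and ran from Psma5 at 4.49 and 4.98 TPM to Psmb6 at 188 and 211 TPM, a 42.1-fold range with a coefficient of variation of 96.8%. The alpha ring was the lower of the rings, with a median of 20.7 ± 2.98 TPM over its 7 genes. Only Psma7 in that ring approached the beta level, at 92.0 and 101 TPM. Psma3, Psma6, Psma4 and Psma2 lay between 15.6 and 32.2 TPM. Psma6 was above Psma4 in both libraries (19.96 and 23.47 TPM against 18.6 and 22.8 TPM), with deposited intervals that overlapped in each. Psma1 was at 7.84 and 8.61 TPM.

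The 4 non-catalytic beta genes had a median of 109 ± 6.16 TPM. Psmb4 had 175 and 151 TPM and Psmb2 had 173 and 137 TPM. Psmb4 was the higher in both libraries, and the deposited intervals of the pair overlapped in replicate 1 and not in replicate 2. Psmb1 followed at 53.7 and 72.4 TPM and Psmb3 at 47.8 and 44.8 TPM. Each of the 4 was above the other 6 alpha genes. The Psmb2 level included Psmb2-202, a processed transcript that held 49.9% and 52.3% of the gene, so that its protein-coding transcript stood at 86.8 and 65.4 TPM.

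In the 19S particle the 17 genes had a median of 58.1 ± 8.98 TPM and a 54.0-fold range, with a coefficient of variation of 85.8%. The 6 ATPases form 1 ring and spanned that whole range in TPM. Psmc4 was the highest at 197 and 183 TPM, followed by Psmc3 at 158 and 163 TPM and Psmc5 at 52.0 and 64.5 TPM. On expected counts, not corrected for length, Psmc3 was above Psmc4, with 11971 and 10814 against 6822 and 5122. With protein-coding transcripts alone Psmc4 had 166 and 141 TPM and Psmc3 had 150 and 151 TPM. The order of Psmc4 and Psmc3, and a range that starts from Psmc4, therefore depended on the unit. Psmc1 had 13.1 and 15.2 TPM and Psmc2 had 8.53 and 10.9 TPM. Psmc6 was the lowest, at 3.78 and 3.26 TPM from 356 and 245 counts, and its intervals were far from those of Psmc4 in each library.

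Of the base subunits outside the ATPase ring, Psmd4, a ubiquitin receptor, had 96.6 and 114 TPM. The scaffold Psmd2 had 89.8 and 106 TPM, and Psmd1, the other large scaffold, had 21.5 and 25.9 TPM. In the lid, Psmd3 led at 147 and 179 TPM with Psmd8 at 140 and 148 TPM. Psmd14, the deubiquitinase that removes the ubiquitin chain from a substrate, was the lowest lid gene at 7.58 and 8.37 TPM. The other lid genes Psmd6, Psmd7, Psmd11, Psmd12 and Psmd13 lay between 26.9 and 70.6 TPM in the single libraries.

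The parts of the particle whose symbols fall outside the pattern were detected as well. Adrm1, a ubiquitin receptor of the base, stood at 436 and 439 TPM, above every 19S member. Its partner deubiquitinase Uchl5 had 184 and 204 TPM, Sem1, the small lid subunit, had 122 and 122 TPM, and the deubiquitinase Usp14 had 30.5 and 27.0 TPM. Ecpas, which binds and remodels the particle, had 19.3 TPM in both libraries, and Akirin2, an importer of proteasomes into the nucleus, had 55.0 and 55.1 TPM. Of the ubiquitin genes, Ubb was at 2879 and 3155 TPM, above Rps27a at 120 and 112 TPM.

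The spread was set beside that of other complexes. The 8 genes of the TRiC chaperonin had a coefficient of variation of 158% and a 21.5-fold range, set by Cct4 at 545 and 632 TPM. On CPM, which is not corrected for length, the value was 96.9% for the core and 73.1% for TRiC. The 8 genes of the COP9 signalosome, related to the 19S lid, had 98.1% and a 17.5-fold range, and 90.95% on CPM. As an SD of log2 TPM the spread was 1.74 for the core and 1.70 for the 19S particle. It was smaller for TRiC, at 1.47, and for COP9, at 1.39. The order of the complexes thus depended on the measure. Uneven levels were present in all of them, and those of the core were not shown to be particular to the proteasome.

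The 4 chaperones of the 20S core had a median of 43.0 ± 2.13 TPM, above that of the alpha ring they help to build. Psmg1, of the chaperone pair that starts the alpha ring, had 75.2 and 99.3 TPM, while its partner Psmg2 had 4.37 and 4.76 TPM. The second pair, Psmg3 and Psmg4, had 36.9 and 32.4 TPM and 52.2 and 50.7 TPM. Pomp, the maturation factor of the beta ring, had 20.4 and 21.3 TPM. The 3 chaperones of the 19S base had a median of 10.3 ± 0.81 TPM, with Psmd9 at 27.0 and 33.4 TPM, Psmd5 at 10.9 and 9.71 TPM and Psmd10 at 1.54 and 1.28 TPM. The regulator Psmf1, also called PI31, had 30.6 and 33.3 TPM, and Psme4, the large PA200 activator, had 2.73 and 3.14 TPM.

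Levels of the members ran with the GC content of their most abundant transcript, a relation examined after the data were seen. Across the 48 detected members, Spearman's rho between mean TPM and GC content was 0.72, across the 17 genes of the 19S particle it was 0.89, and across the 14 core genes 0.58. Over 9965 detected protein-coding genes it was 0.37, and over the 8 COP9 genes 0.76 and the 8 TRiC genes 0.07. These are descriptions across genes measured in the same 2 libraries. Psmc6, the lowest 19S gene, had 37.0% GC and Psmd3, one of the highest, had 58.3% GC. The immunoproteasome catalytic genes Psmb8, Psmb9 and Psmb10 had 57.6%, 55.3% and 56.5%, near Psmb5 and Psmb6 at 56.6% and 55.8%, while Psmb7 had 48.7%.

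With GC content and transcript length regressed out over detected protein-coding genes, the SD of log2 TPM was 1.41 in place of 1.74 for the core and 1.18 in place of 1.70 for the 19S particle. The 3 catalytic ratios met the same rule after that step. Psme1 over Psme3 was 0.81 and did not. Whether the relation to GC came from library preparation or was present in the cells was not tested.

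**Figure D3:**
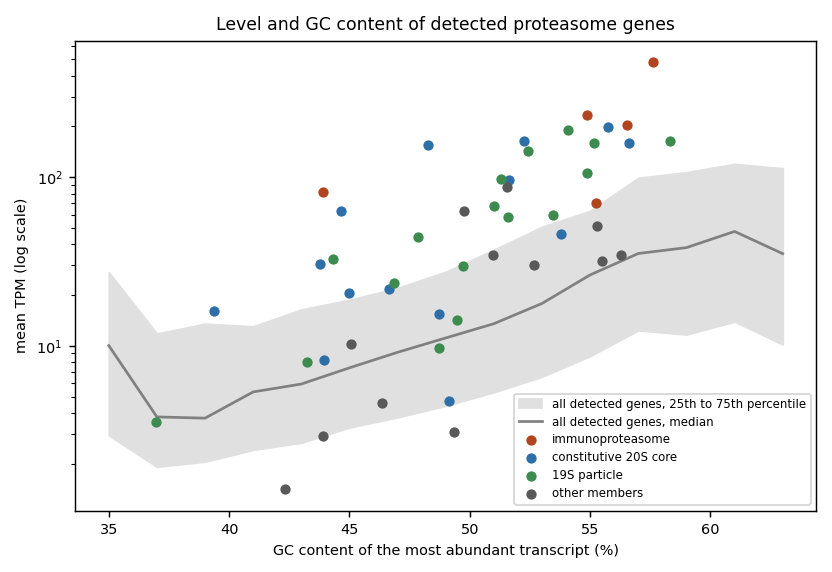
Mean TPM of the 48 detected members on a log axis against the GC content of the most abundant transcript, coloured by class. The grey line and band are the median and the 25th to 75th percentile of all detected protein-coding genes in 2% steps of GC content. Members with GC above 50% lie mostly above 30 TPM, and Psmc6 at 37.0% GC lies at 3.52 TPM.

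The libraries differed by small folds in the members. Among the 42 members that averaged at least 5 TPM, 0 lay over 2-fold apart with intervals that did not overlap, against 1.37% of 7653 protein-coding genes at that level (105 genes). At 1.5-fold the count of members was also 0. Beside a share of 1.37%, 0 of 42 does not set the members apart from other genes. At any fold, intervals did not overlap for 27 of the 42 members and 5111 of the 7653 genes. The median size of the log2 difference was 0.14 for the members and 0.19 for all genes. The 4 members furthest apart were Psmb2, 1.38-fold higher in replicate 1, Psmb7, 1.26-fold higher in replicate 1, and Psmb1 and Psmg1, lower in replicate 1 at 0.80 of replicate 2.

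Of the 42, 18 were higher in replicate 1 and 24 in replicate 2, where 46.4% of all genes at that level were higher in replicate 2. Within the 19S particle 13 of 16 were higher in replicate 2, with a median log2 difference of -0.10, while 4 of 5 immunoproteasome genes were higher in replicate 1. Both directions were the same with DESeq2 size factors and on log2 TPM, where 15 of 16 genes of the 19S particle and 4546 of all 7653 genes were higher in replicate 2. The megakaryocyte and erythroid marker sums were also higher in replicate 2, and their part in this was not tested. Over all members the median was -0.05 and over all genes 0.02. None of these differences has a replicate check, since each group is 1 library. The order of the 48 detected members hardly changed between the libraries, with a Spearman's rho of 0.99.

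**Figure D4:**
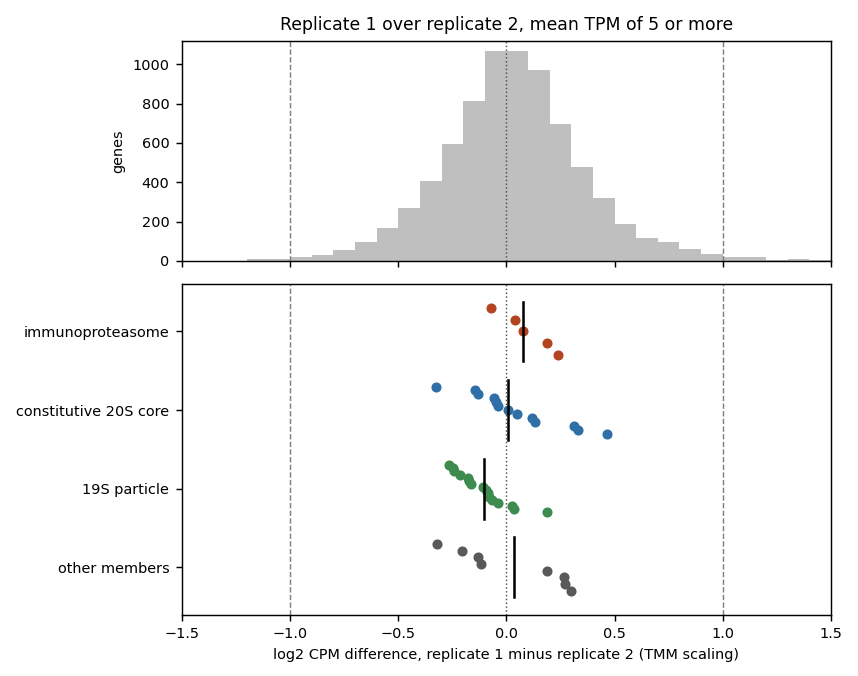
Log2 CPM difference, replicate 1 minus replicate 2, for every protein-coding gene averaging at least 5 TPM (upper panel, number of genes per step of 0.1) and for the 42 members at that level by class (lower panel, 1 point per gene, black lines at the class median). Genes beyond 1.5 on either side are not drawn, and every member at that level lies between the dashed lines at -1 and 1.

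The transcript tables showed the same leading transcript in both libraries for 46 of the 48 detected members. The exceptions were Psmb2 and Psmc3. For Psmc3, Psmc3-203 held 37.9% and 36.9% of the gene's TPM, Psmc3-202 held 26.0% and 44.5%, and Psmc3-210 held 31.0% and 11.4%, in replicates 1 and 2. A single leading transcript held at least 90% in both libraries for 22 members, Psmb10, Psmb5 and Psmb1 among them with 1 expressed transcript each. Of the 48 detected members, 9 had only 1 listed transcript, so they fall within both the 46 and the 22 by construction. Neither count was set beside that of all detected protein-coding genes, so they do not set the members apart from other genes.

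In 4 of 48 detected members at least 50% of TPM lay in transcripts of a type other than protein-coding in both libraries, against 16.9% of detected protein-coding genes. These were Psma3 (82.8% and 89.5%), Psme2, Psmd6 (81.8% and 78.8%) and Psmc3ip (87.5% and 75.2%). The median share of TPM in such types ran the other way. It was 2.17% and 3.36% for the detected members and 0.10% and 0.41% for all detected protein-coding genes, in replicates 1 and 2. For Psma3 the leading transcript was Psma3-207, a nonsense-mediated decay model of 562 bases. For Psmd6 it was the retained-intron model Psmd6-203, so that the lid gene stood at 11.7 and 15.0 TPM on its protein-coding transcripts, against 64.2 and 70.6 TPM in all. Such models are short and share exons with the coding transcript, and how the reads were divided among them rests on the authors' estimate.

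**Figure D5:**
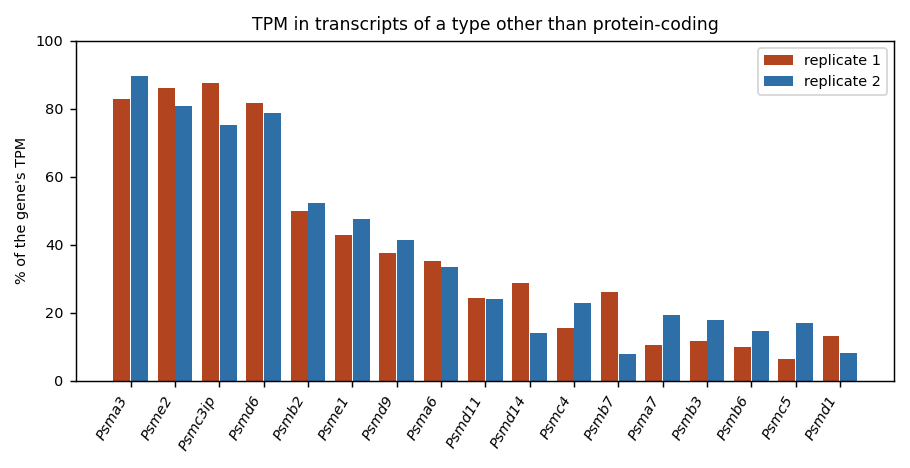
Percent of each gene's TPM in transcripts of a type other than protein-coding, for the detected members where the mean of the 2 MEP libraries was 10% or more, with 1 bar per library. Psma3, Psme2, Psmc3ip and Psmd6 stand above 75% in both libraries, and Psmb2 lies at 49.9% and 52.3%.

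Some members overlap expressed genes on the opposite strand, which were named after their values were seen. Psmc3 overlaps Slc39a13 (22.5 and 23.0 TPM) over 4579 bases, Psmd13 overlaps Sirt3 (88.7 and 85.6 TPM) over 342 bases, and Psmb7 overlaps Nek6 (4.65 and 4.22 TPM) over 6571 bases. Whether reads were assigned by strand is not stated, so reads in these overlaps cannot be told apart, and the levels of Psmc3, Psmd13, Psmb7 and Psmb9 carry that limit. It also holds for Psmc3ip, which overlaps Mlx (27.0 and 25.7 TPM) over 385 bases, for Psma3, which overlaps a noncoding gene, 3110056K07Rik (2.34 and 3.87 TPM), over 4733 bases, and for the 14 bases that Psme1 shares with Emc9 (8.57 and 8.31 TPM).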

How the data were processed

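The 2 poly(A) RNA-seq libraries of 1 group were used, each with a gene and a transcript table on mm10, per the labels. The notes accompanying each library name annotation M4. Not given in the sources used here are the aligner, quantification program and strand handling. Per the file headers, the authors estimated expected counts per feature, divided them by effective length and scaled to TPM, which sums to 1000000 per library; the deposited TPM intervals cover quantification error within 1 library. The deposited percent values split a gene's TPM among its transcripts.

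Gene identifiers without version were matched to GENCODE M21 (42462 of 43346). Coordinates are of GRCm38. Expected counts were rounded and scaled with edgeR 4.0.16 (TMM, prior count of 2) in R 4.3.3, and the scaling was checked on simulated data. Log2 ratios of TPM used a pseudocount of 0.01, and so understate changes of low genes. Tables were handled with Python 3.11.15, pandas 2.3.3, numpy 2.4.6 and scipy 1.17.1, and drawn with matplotlib 3.10.9. Depth was 79539452 and 65305315 counts. Alternatives were DESeq2 1.42.0 size factors, other thresholds, pseudocounts and units, each library alone, protein-coding transcripts alone and a GC correction, the last pair and the count of members higher in replicate 2 under other scalings being added after seeing the data. Some genes of the lists are not reported here. By the rule for named genes, any member and any gene of the functional lists may be named. Paaf1 of the list of other proteasome parts matched no identifier and was not analysed here. Protein identity between members was not analysed here. The members, lists and rules were chosen with earlier results of these data known. A numbered replicate is a separate sample in the labels.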

Additional observations from a re-analysis of the deposited data

How the results depend on the processing

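Of the log2 ratios, Psmb8 over Psmb5 and Psmb10 over Psmb7 kept their direction and stayed past the size rule under posterior mean TPM, expected counts, a pseudocount of 1, either library alone, protein-coding transcripts alone and the GC and length regression. On expected counts Psmb9 over Psmb6 was -0.59 and Psme1 over Psme3 was 0.39, both inside the size rule, Psme2 over Psme3 reversed to -1.97, and the ratio of the catalytic sums was 1.55. With the GC and length regression Psme1 over Psme3 was 0.81. With protein-coding transcripts alone Psme2 over Psme3 reversed to -2.22 and Psme1 over Psme3 fell to 1.04. The coefficient of variation was then 105% for the core and 91.3% for the 19S particle. Leaving out 1 library, the core's coefficient of variation ran from 96.1% to 98.5%. The causes were not tested, beyond what length correction and transcript choice change by construction. The counts of members detected, of members more than 2-fold apart and of shared leading transcripts stayed within 1.5 times under every alternative run for them. Of the 10 group medians, 8 moved by more than 1 SD on CPM, 7 as means and 0 under posterior mean TPM. CPM is a different unit from the TPM of that SD, so a move there is partly one of unit. With 2 libraries, either one alone always lies within 1 SD of their mean, so the 0 that moved with either library alone was fixed in advance. No paired analysis was possible because there is 1 group. With 2 libraries, SDs are themselves poorly known, and Psma8 and Psmb11 rest on at most 53 counts.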
